A study of Oryza sativa Japonica Group with 4 samples.

Results

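Fasciclin-like arabinogalactan proteins and the other arabinogalactan proteins of rice were examined in leaf RNA-seq of drought-treated seedlings. Members were the genes whose description in the deposited table names a FAS1 domain, a fasciclin or an arabinogalactan, or whose gene name begins with OsFLA or OsAGP followed by a digit. Of 33744 genes in the table, 57 met this rule. They fell into 29 genes with a fasciclin name or description, called fasciclin-type below, and 28 with an arabinogalactan name or description only, called arabinogalactan-named. Members were selected on these words and not on a level, but the family itself was picked from results of the comparison between the lines, which rest on the same FPKM values. The values of that comparison are therefore given as a description, without tests of single members, and no threshold on a level separates members from other genes.

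Rice of the Japonica group was sampled as the line OE13-2KR/oswox13-1, labelled drought sensitive, and the line OE13, labelled drought resistant, with 2 libraries each. Every library came from leaves of 14-day-old seedlings after 6 h of drought, and there was no watered and no wild-type group. The series title names acetylation of OsWOX13, a WUSCHEL-related homeobox transcription factor. The name OE13-2KR/oswox13-1 holds a 2KR form and an oswox13-1 background, neither of which is in the name OE13, and their parts in a difference cannot be told apart. The promoters of the transgenes, the number of plants per library and the number of independent lines were not described in the sources used here. Whether libraries of a line came from separate plants is not stated, so any spread or p-value covers these libraries only and may be technical.

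Levels are FPKM, fragments scaled to gene length and library total, and they summed to between 931335 and 941593 per library over all genes. Read depth is unknown. The locus taken from general knowledge to be OsWOX13 (Os01g0818400, listed as OsWOX8) stood at 27.1 and 49.9 FPKM in OE13-2KR/oswox13-1, against 22.02 and 75.6 FPKM in OE13, so the lines overlapped. Leaf blade genes were at high levels: RBCS, the small subunit of Rubisco, lay between 3175 and 11373 FPKM. LSI1, a silicon influx transporter best known from roots, stood between 18.7 and 27.1 FPKM.

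Arabinogalactan proteins are secreted glycoproteins whose backbone, rich in proline that is converted to hydroxyproline, carries branched chains of galactose and arabinose. Many are held at the outer face of the plasma membrane by a glycosylphosphatidylinositol (GPI) anchor. Fasciclin-like members add fasciclin (FAS1) domains, which are known from animals as adhesion domains. In Arabidopsis, members of this subfamily are tied to stem secondary walls, salt tolerance and pollen walls. Rice numbers do not follow Arabidopsis numbers, so OsFLA4 is not the counterpart of Arabidopsis FLA4 by its name.

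Most expressed fasciclin-type genes had lower values in OE13-2KR/oswox13-1 than in OE13, while the arabinogalactan-named genes, which include the most abundant members, went both ways. Over all members, both OE13-2KR/oswox13-1 libraries lay below both OE13 libraries in 15 of 29 fasciclin-type and 8 of 28 arabinogalactan-named genes, and above them in 1 and 4 genes. Over all 33744 genes, 27.3% lay below and 18.3% above. Of the 57 members, 30 had a mean of at least 1 FPKM over the 4 libraries and entered the fit across genes, 14 fasciclin-type and 16 arabinogalactan-named. In 10 of those 14 fasciclin-type genes both OE13-2KR/oswox13-1 libraries lay below both OE13 libraries, and in 0 both lay above. Among the 16 arabinogalactan-named genes 5 lay below, 3 above and 8 overlapped. The filter shaped these counts: 4 of the 14 fasciclin-type genes (OsFLA15, OsFLA9, OsFLA24 and OsFLA4) averaged under 1 FPKM in OE13-2KR/oswox13-1 and entered through OE13, so a difference was built into their selection. The same held for 2 of the 16 arabinogalactan-named genes, OsAGP12 and OsAGP17, and for 744 of all 20174 genes tested. Over all 20174 genes tested, both OE13-2KR/oswox13-1 libraries lay below both OE13 libraries in 32.8% and above them in 23.4%. The median log2 fold change, OE13-2KR/oswox13-1 minus OE13 on the log2(FPKM + 1) scale, was -1.76 for the fasciclin-type genes, -0.11 for the arabinogalactan-named genes and -0.08 for all genes. With no filter the fasciclin-type median was -0.38. Leaving out OE13 replicate 2 gave a fasciclin-type median of -1.28, and leaving out OE13-2KR/oswox13-1 replicate 2 gave -1.41. A log2 fold change below -1 was found in 10 fasciclin-type genes and 1 arabinogalactan-named gene, and in 5.62% of all genes, while one above 1 was found in 0 members and 1.99% of all genes. The median of the arabinogalactan-named genes was 0.13 without OE13-2KR/oswox13-1 replicate 1 and 0.02 after quantile normalisation. The difference between the classes was not tested.

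No member passed a Benjamini-Hochberg adjusted p under 0.05 in limma's fit, where 0.00496% of all genes did. At an unadjusted p under 0.05, 12 members were lower, 10 of them fasciclin-type, and 0 were higher in OE13-2KR/oswox13-1. The same threshold took 12.0% of all genes in the lower and 8.00% in the higher direction, which is 2415 and 1613 genes. That split turned with scaling, to 1903 lower and 2125 higher genes after quantile normalisation. Since the family was proposed with this comparison in view, nothing is read from these counts. An exact permutation test of a single gene could not go below p = 0.333 with 2 libraries against 2.

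Summed FPKM takes in every member but follows mainly the abundant ones. In OE13 replicate 2, OsFLA3, OsFLA11, OsFLA7 and OsFLA2 stood at 92.5, 39.2, 40.6 and 33.8 FPKM. The 15 untested fasciclin-type genes did not exceed 1.17 FPKM in any library. Over the 29 fasciclin-type genes FPKM summed to 83.4 and 42.1 in OE13-2KR/oswox13-1, against 183 and 284 in OE13. The lines did not overlap, and the highest OE13-2KR/oswox13-1 sum was well below the lowest OE13 sum. Without OsFLA3, the most abundant of them, the sums were 42.5 and 21.1 in OE13-2KR/oswox13-1, against 115 and 191 in OE13. The 28 arabinogalactan-named genes summed to 1101 and 1519 in OE13-2KR/oswox13-1, against 1375 and 1102 in OE13, and here the lines overlapped. In bulk leaf RNA, fewer cells that express a gene and less of its RNA per cell cannot be told apart.

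**Figure D1:**
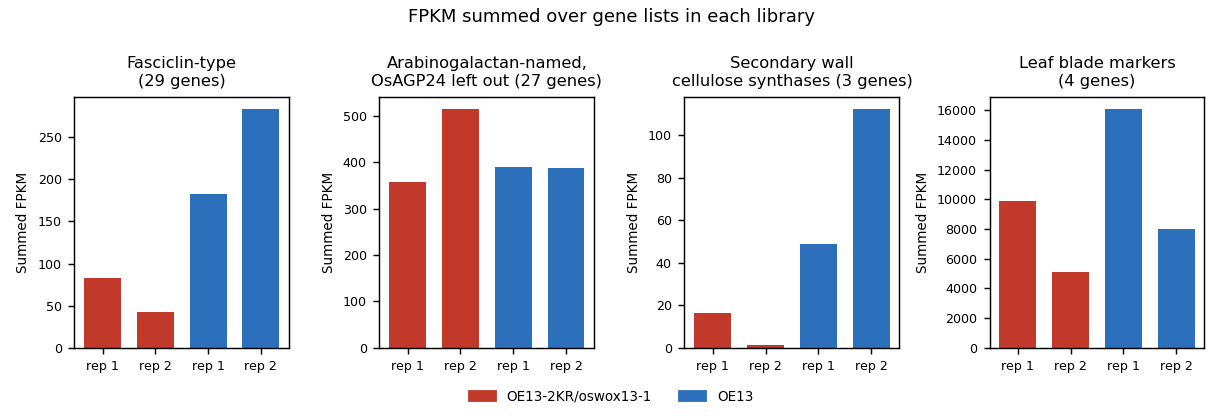
FPKM summed over gene lists in each library (bars start at 0), with OE13-2KR/oswox13-1 in red to the left of OE13 in blue. The fasciclin-type sum was 83.4 and 42.1 in OE13-2KR/oswox13-1, against 183 and 284 in OE13, that of the arabinogalactan-named genes without OsAGP24 overlapped between the lines, that of the secondary wall cellulose synthases followed the fasciclin-type genes, and that of the leaf blade markers overlapped.

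OsFLA7 (Os01g0668100, chromosome 1, 27340911 to 27341950, minus strand) differed most among the members. Its level was 1.90 and 0.462 FPKM in OE13-2KR/oswox13-1, against 16.9 and 40.6 FPKM in OE13. Both libraries of OE13-2KR/oswox13-1 were far below both of OE13, with a log2 fold change of -3.73 (SE 0.52). OsFLA2 (Os03g0128000, chromosome 3, 1579382 to 1580910, plus strand) stood at 4.54 and 0.438 FPKM in OE13-2KR/oswox13-1, against 20.1 and 33.8 FPKM in OE13. Its log2 fold change was -3.26 (SE 0.67), and the OE13-2KR/oswox13-1 libraries themselves lay far apart. OsFLA15 (Os02g0308800, chromosome 2, 12127913 to 12129233, minus strand) was close to 0 in 1 library, with 1.71 and 0.0600 FPKM in OE13-2KR/oswox13-1 against 10.05 and 11.7 FPKM in OE13 (log2 fold change -2.80, SE 0.47). The OE13 libraries were close to each other, and the spread lay within OE13-2KR/oswox13-1. OsFLA15 averaged 0.884 FPKM in OE13-2KR/oswox13-1 and entered the fit only through OE13.

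OsFLA11 (Os09g0248100, chromosome 9, 3654992 to 3658609, plus strand) was the second most abundant fasciclin-type gene. It stood at 5.86 and 2.22 FPKM in OE13-2KR/oswox13-1, against 23.4 and 39.2 FPKM in OE13 (log2 fold change -2.74, SE 0.44). A gene on the other strand, Os09g0248200, described as similar to an ABI3-interacting protein, covers 50.9% of its span. That gene stood at 98.0 and 96.3 FPKM in OE13-2KR/oswox13-1, against 104 and 141 FPKM in OE13, and the sources used here do not say whether fragments were assigned by strand. OsFLA3 (Os08g0321000, chromosome 8, 13985121 to 13988121, minus strand) had the highest level of the class. It stood at 40.9 and 21.04 FPKM in OE13-2KR/oswox13-1, against 68.0 and 92.5 FPKM in OE13, again with no overlap. Its log2 fold change of -1.40 (SE 0.36) was -0.94 without OE13-2KR/oswox13-1 replicate 2.

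A further 5 genes lay the same way. Of these, OsFLA24, OsFLA9 and OsFLA4 entered the fit only through OE13, so a difference was built into their selection. OsFLA6 (Os05g0563600, chromosome 5, 28051758 to 28052859, plus strand) stood at 1.74 and 1.19 FPKM in OE13-2KR/oswox13-1, against 7.27 and 11.7 FPKM in OE13 (log2 fold change -2.07, SE 0.30). OsFLA24 (Os03g0788600, chromosome 3, 32757036 to 32760505, minus strand) stood at 0.700 and 0.440 FPKM in OE13-2KR/oswox13-1, against 3.97 and 5.74 FPKM in OE13 (-1.89, SE 0.26). In both genes the libraries of a line were close together and the lines far apart. OsFLA16 (Os07g0160600, chromosome 7, 3258325 to 3262106, plus strand) stood at 5.01 and 1.34 FPKM in OE13-2KR/oswox13-1, against 8.71 and 15.7 FPKM in OE13. Its log2 fold change of -1.76 (SE 0.52) was -1.08 without OE13-2KR/oswox13-1 replicate 2. OsFLA9 (Os05g0163300, chromosome 5, 3715778 to 3716891, minus strand), described as arabinogalactan protein-like, stood at 0.684 and 0.525 FPKM in OE13-2KR/oswox13-1, against 2.13 and 8.26 FPKM in OE13. Much of its log2 fold change of -1.75 (SE 0.53) lay in OE13 replicate 2, without which it was -0.97. OsFLA4 (Os08g0490600, chromosome 8, 24253045 to 24253832, plus strand), named after its values were seen, stood at 0.509 and 0.452 FPKM in OE13-2KR/oswox13-1, against 2.13 and 2.51 FPKM in OE13 (log2 fold change -1.16, SE 0.22).

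The other 4 tested fasciclin-type genes, also named after their values were seen, overlapped between the lines. OsFLA12 was the most even of them, at 6.18 and 6.84 FPKM in OE13-2KR/oswox13-1, against 7.05 and 5.41 FPKM in OE13. OsFLA17 stood at 2.57 and 1.14 FPKM in OE13-2KR/oswox13-1, against 1.98 and 2.03 FPKM in OE13. Os03g0237950, described as similar to a fasciclin domain protein, stood at 4.97 and 2.78 FPKM in OE13-2KR/oswox13-1, against 4.05 and 4.39 FPKM in OE13. OsFLA8 stood at 3.78 and 1.53 FPKM in OE13-2KR/oswox13-1, against 2.73 and 6.20 FPKM in OE13, and 73.9% of its span is covered by a hypothetical gene on the other strand. In all of these the highest and the lowest library differed by more within OE13-2KR/oswox13-1 or within OE13 than the line means did.

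**Figure D2:**
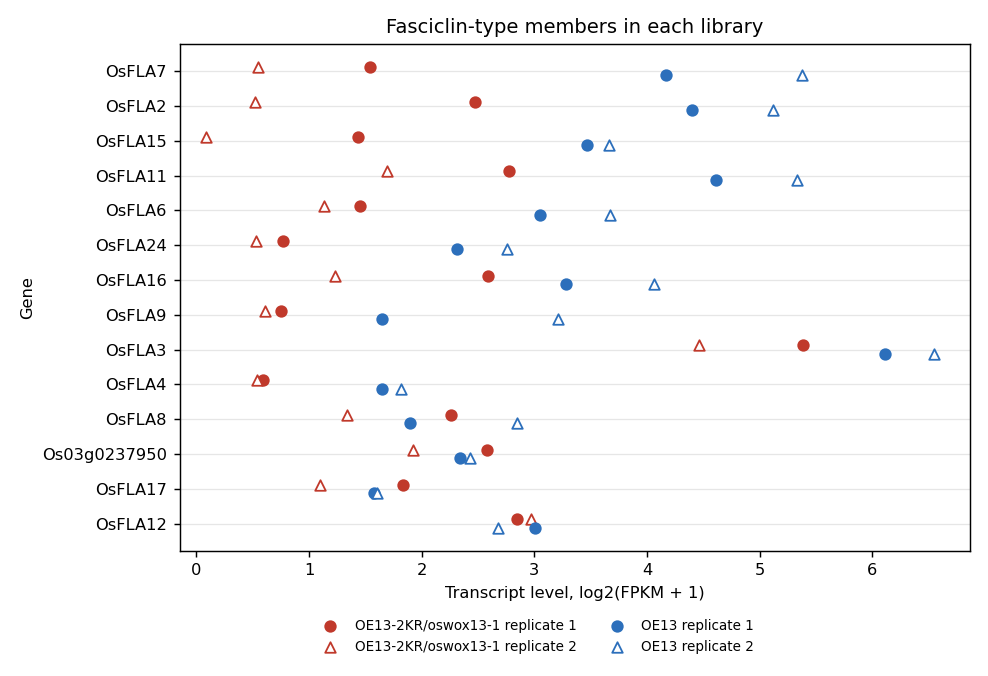
Level of the 14 tested fasciclin-type genes in each library, as log2(FPKM + 1), ordered by log2 fold change with the most negative at the top. Red marks are OE13-2KR/oswox13-1 and blue marks OE13; in the upper 10 genes every red mark lies left of every blue mark, and in the lower 4 they overlap.

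The remaining 15 fasciclin-type genes had a mean below 1 FPKM and were left out of the fit, and none exceeded 1.17 FPKM in any library. They included Mtr1, whose table description names a secreted fasciclin glycoprotein of anther and pollen development. Its level was 0.0138 and 0.0279 FPKM in OE13-2KR/oswox13-1, against 0.136 and 0.119 FPKM in OE13, close to 0 in both lines. OsFLA23, described as similar to an endosperm protein, and OsFLA19 were listed at 0 in every library. The fasciclin-type gene with both OE13-2KR/oswox13-1 libraries above both OE13 libraries was OsFLA5. It stood at 0.176 and 0.0766 FPKM in OE13-2KR/oswox13-1, while it was listed at 0 in OE13.

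The neighbouring fasciclin-type genes OsFLA24 and OsFLA17 were both tested and did not follow each other. They lie on the same strand of chromosome 3 with 19634 bp and 0 listed genes between them. The first differed between the lines without overlap, and the second overlapped. OsFLA6 and OsFLA18 lie 3618 bp apart on chromosome 5, and OsFLA18 did not exceed 0.402 FPKM. OsFLA15 lies 12947 bp from OsFLA19, which was at 0. OsFLA4 lies 7409 bp from the arabinogalactan-named OsAGP10, which did not exceed 0.0597 FPKM. OsFLA18, OsFLA19 and OsAGP10 were too low to show whether they followed their neighbours. OsFLA22 and OsFLA20, 21394 bp apart on chromosome 2, were both under 1 FPKM in every library. Whether the pairs arose by duplication was not examined.

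The arabinogalactan-named genes were led by OsAGP24 (Os06g0318800, chromosome 6, 12359510 to 12360112, minus strand), which alone held most of their FPKM. It stood at 744 and 1004 FPKM in OE13-2KR/oswox13-1, against 985 and 714 FPKM in OE13. The lines covered the same range, and the log2 fold change of 0.04 (SE 0.27) changed sign with single libraries, between -0.19 and 0.28. The table describes this locus, with OsAGP14, OsAGP22 and OsAGP25, as a non-coding transcript, so for these 4 the table gives no protein.

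OsAGP14 (Os01g0559900, chromosome 1, 21261805 to 21262418, plus strand) stood at 81.9 and 149 FPKM in OE13-2KR/oswox13-1, against 83.5 and 76.0 FPKM in OE13. Only OE13-2KR/oswox13-1 replicate 2 stood out, and without it the log2 fold change of 0.47 (SE 0.31) was 0.04. A gene on the opposite strand overlaps 54.2% of it. OsAGP27 (Os07g0573900, chromosome 7, 23202739 to 23203255, plus strand) stood at 68.2 and 83.7 FPKM in OE13-2KR/oswox13-1, against 90.7 and 76.2 FPKM in OE13, with overlap and a log2 fold change of -0.14 (SE 0.20) that was 0.01 without OE13-2KR/oswox13-1 replicate 1. OsAGP26 (Os06g0505700, chromosome 6, 17984211 to 17986882, plus strand), described as similar to AGP16, belongs by that description to the short arabinogalactan peptides. It was the steadiest of the abundant members, at 56.7 and 57.1 FPKM in OE13-2KR/oswox13-1, against 53.1 and 50.6 FPKM in OE13 (log2 fold change 0.13, SE 0.17).

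A small excess in OE13-2KR/oswox13-1 was seen in several of the abundant genes. Os09g0512900 (chromosome 9, 19955723 to 19957705, plus strand), described as similar to an arabinogalactan protein, stood at 59.2 and 71.1 FPKM in OE13-2KR/oswox13-1, against 47.7 and 52.9 FPKM in OE13 (log2 fold change 0.36, SE 0.19). OsAGP3 (Os03g0188500, chromosome 3, 4634963 to 4635591, minus strand), which the table describes as a glutelin family protein, stood at 34.1 and 49.1 FPKM in OE13-2KR/oswox13-1, against 33.2 and 30.8 FPKM in OE13 (0.35, SE 0.23). Without OE13-2KR/oswox13-1 replicate 2 its value was 0.09. OsAGP1 (Os08g0482300, chromosome 8, 23847854 to 23848622, plus strand), with a pistil-specific extensin-like description, stood at 27.5 and 47.2 FPKM in OE13-2KR/oswox13-1, against 24.2 and 33.3 FPKM in OE13. These overlapped, and the log2 fold change of 0.33 (SE 0.32) was -0.05 without OE13-2KR/oswox13-1 replicate 2. In OsAGP3 and OsAGP1 the libraries of OE13-2KR/oswox13-1 differed from each other by more than the line means did, and in Os09g0512900 by less.

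At the low end OsAGP12 (Os01g0110200, chromosome 1, 543425 to 544510, minus strand), described only as a conserved hypothetical protein, stood at 0.224 and 0 FPKM in OE13-2KR/oswox13-1, against 0.871 and 3.50 FPKM in OE13. Its log2 fold change of -1.39 (SE 0.46) was -0.76 without OE13 replicate 2. OsAGP12 averaged 0.112 FPKM in OE13-2KR/oswox13-1 and entered the fit only through OE13, so a difference was built into its selection. The other tested arabinogalactan-named genes below in both libraries, named after their values were seen, were OsAGP31, OsAGP22, OsAGP13 and OsAGP20, with log2 fold changes of -0.86, -0.82, -0.80 and -0.68. In OsAGP22 the nearest libraries nearly touched, at 4.18 and 12.4 FPKM in OE13-2KR/oswox13-1 against 15.1 and 12.6 FPKM in OE13. On the log2 scale OsAGP9 varied most within a line, at 2.95 and 8.78 FPKM in OE13-2KR/oswox13-1, against 0.369 and 10.7 FPKM in OE13. The last 3 tested genes, OsAGP21, OsAGP17 and OsAGP4, overlapped between the lines, with log2 fold changes between -0.21 and -0.08. Another 12 had a mean below 1 FPKM, the highest value among them being 2.96 FPKM for OsAGP29 in OE13 replicate 2. Of these 12, OsAGP30, OsAGP5 and OsAGP7 also lay below and OsAGP19 above, all under 1 FPKM in every library.

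**Figure D3:**
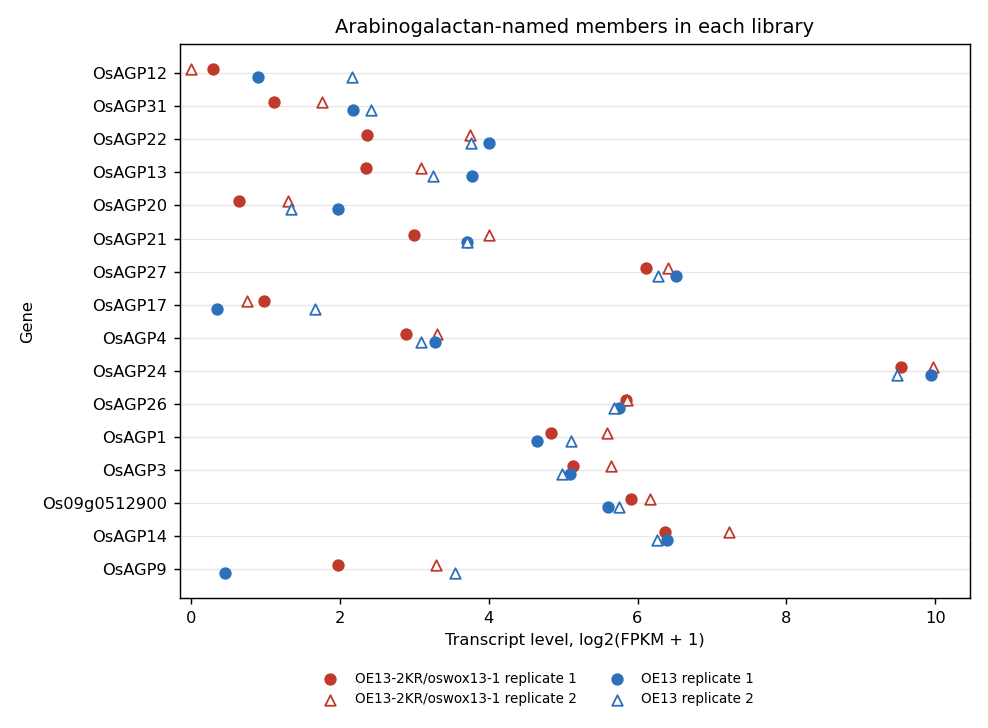
Level of the 16 tested arabinogalactan-named genes in each library, as log2(FPKM + 1), ordered by log2 fold change with the most negative at the top. Red marks are OE13-2KR/oswox13-1 and blue marks OE13; both red marks lie left of both blue marks in 5 genes, among them OsAGP12 and OsAGP31, and right of both in 3 (Os09g0512900, OsAGP26 and OsAGP3), and the marks overlap in 8.

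The classes also differed in how libraries of the same line related to each other. The fold changes do not use these differences, but their standard errors and p-values do. In OE13-2KR/oswox13-1, replicate 2 was below replicate 1 in 13 of 14 tested fasciclin-type genes and above it in 14 of 16 arabinogalactan-named genes. Among all genes tested, 57.2% were below and 42.7% above. In OE13, replicate 2 was above replicate 1 in 13 of 14 fasciclin-type genes, against 51.6% of all genes, and in 6 of 16 arabinogalactan-named genes. OsFLA12 was the exception in both lines. In each of the 10 fasciclin-type genes without overlap the 4 libraries therefore stood in the same order, from OE13-2KR/oswox13-1 replicate 2 at the bottom to OE13 replicate 2 at the top. Among all genes that lay below in both libraries, 44.1% had this order. Genes of a library share its depth and composition, so these counts describe 4 libraries and carry no test. The number of genes listed at 0 was 4138 and 4819 in OE13-2KR/oswox13-1, against 3973 and 4112 in OE13, and its part in this order was not tested.

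**Figure D4:**
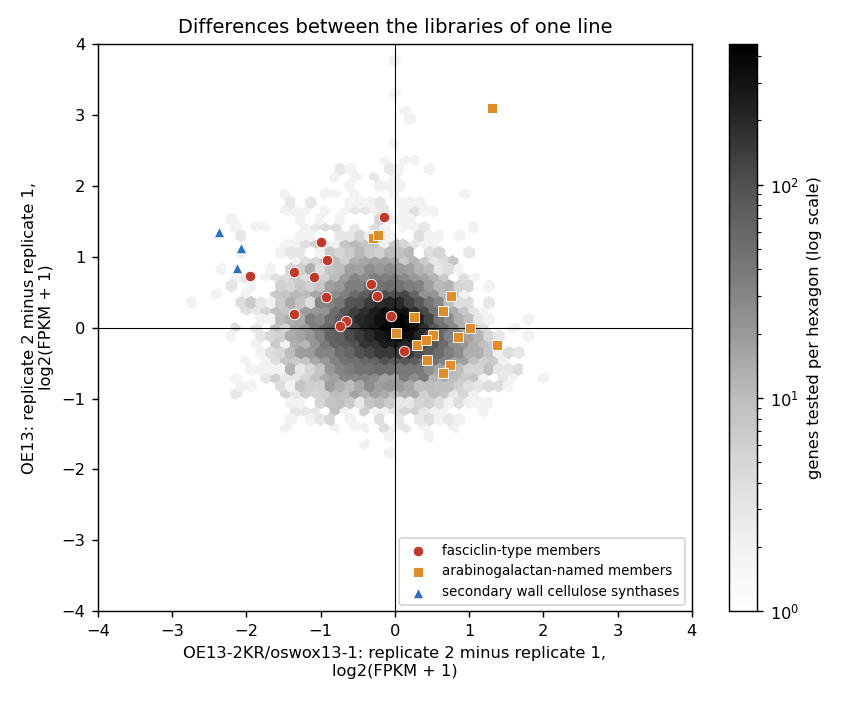
Difference between the libraries of one line, replicate 2 minus replicate 1 on log2(FPKM + 1), in OE13-2KR/oswox13-1 (horizontal) and in OE13 (vertical), with all 20174 genes tested as grey hexagons. Fasciclin-type members (red circles) lie in the upper left except OsFLA12, as do the 3 secondary wall cellulose synthases (blue triangles), while 14 of 16 arabinogalactan-named members (orange squares) lie on the right.

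Gene ontology terms in the table, which the rule did not use, tied part of the fasciclin-type genes to the secondary wall. The term for secondary cell wall biogenesis was carried by 13 of 29 fasciclin-type and 0 of 28 arabinogalactan-named genes, and by 51 genes in the whole table. Of the 6 carriers that were tested, 5 had both OE13-2KR/oswox13-1 libraries below both OE13 libraries: OsFLA7, OsFLA15, OsFLA6, OsFLA9 and OsFLA4. The sixth, OsFLA8, overlapped. OsFLA15, OsFLA9 and OsFLA4 averaged 0.884, 0.605 and 0.480 FPKM in OE13-2KR/oswox13-1 and entered the fit only through OE13. For them a difference was built into the selection. Among the carriers left out of the fit, OsFLA10 lay below and OsFLA5 above. OsFLA13, OsFLA18, OsFLA27, OsFLA19 and OsFLA23 lay neither way. Of the 38 tested genes with this term in the whole table, 20 (52.6%) lay below, beside 32.8% of all genes tested. These 38 include the 6 fasciclin-type carriers and the 3 secondary wall cellulose synthases described below, all 3 of which lay below. The share is therefore not separate from those genes. OsFLA2, OsFLA11, OsFLA24, OsFLA16 and OsFLA3 lay below as well but do not carry the term. A term for anchorage to the plasma membrane was carried by 11 fasciclin-type genes.

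Secondary wall cellulose synthases, the catalytic subunits that make the thick walls of xylem and fibre cells, stood in the same library order as the 10 fasciclin-type genes without overlap, and so did 4 of 6 primary wall cellulose synthases. Their levels moved with those of the fasciclin-type genes, and the part of secondary wall forming cells in the fasciclin result was not tested. OsCesA4 (Os01g0750300) stood at 5.19 and 0.420 FPKM in OE13-2KR/oswox13-1, against 15.5 and 28.7 FPKM in OE13. Summed over OsCesA4, CESA7 and BC6, FPKM came to 16.3 and 1.21 in OE13-2KR/oswox13-1, against 49.0 and 112 in OE13, with a median log2 fold change of -2.90. Genes on the opposite strand overlap 99.8% of CESA7 and 87.7% of BC6. The 6 primary wall cellulose synthases, which build the walls of growing cells, were also all lower at an unadjusted p under 0.05, with a median of -1.07. Their sums were 443 and 219 in OE13-2KR/oswox13-1, against 890.3 and 933 in OE13.

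Other wall proteins with a GPI anchor or an arabinogalactan part were mixed, and the genes of these context lists were named after their values were seen. BC1L4, a COBRA-like protein gene tied to cellulose synthesis, stood at 41.3 and 31.8 FPKM in OE13-2KR/oswox13-1, against 90.1 and 88.1 FPKM in OE13, though 84.7% of its span is shared with a gene on the opposite strand. Of 5 COBRA-like genes tested 2 were lower at an unadjusted p under 0.05 and 0 higher, with a median log2 fold change of -0.18. Of 17 tested phytocyanin and early nodulin-like genes, copper-binding or related proteins of which some carry arabinogalactan, 5 were lower and 1 higher, with a median of -0.23. OsENODL4 differed most among them, at 5.09 and 1.88 FPKM in OE13-2KR/oswox13-1, against 21.4 and 24.3 FPKM in OE13. The higher gene was OsENODL14, at 4.18 and 2.88 FPKM in OE13-2KR/oswox13-1, against 1.42 and 1.44 FPKM in OE13. Of 42 tested genes described as extensins or as proline- or glycine-rich, 7 were lower and 2 higher, with a median of -0.21. This word list also holds RNA-binding glycine-rich proteins such as OsGRP3, which are not wall proteins. OsRePRP1.2, a proline-rich glycoprotein gene described with root growth under abscisic acid, stood at 933 and 907 FPKM in OE13-2KR/oswox13-1, against 1660 and 2604 FPKM in OE13. OsRePRP2.2 and OsRePRP2.1, with the same description, overlapped between the lines, with log2 fold changes of 0.32 and 0.24. OsRePRP1.1 did not exceed 0.110 FPKM. Os03g0341600, described with an extensin domain, lay above, at 201 and 286 FPKM in OE13-2KR/oswox13-1, against 37.2 and 115 FPKM in OE13.

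Genes listed by words as prolyl 4-hydroxylases, glycosyltransferases or GPI anchor genes had medians near that of all genes. Beta-galactosidase and arabinofuranosidase genes, also listed by words, had a lower median. Whether the listed glycosyltransferases and glycosidases act on arabinogalactan was not examined. The 6 prolyl 4-hydroxylase genes, which prepare the backbone for glycosylation, had 0 lower and 0 higher at an unadjusted p under 0.05 and a median log2 fold change of 0.01. Of 13 tested glycosyltransferase genes 0 were lower and 1 was higher, with a median of -0.13. The higher was Os09g0452900, of glycosyl transferase family 31, at 64.1 and 78.1 FPKM in OE13-2KR/oswox13-1, against 38.0 and 29.4 FPKM in OE13. The 7 tested GPI anchor genes had 0 lower and 0 higher and a median of -0.04. Among 7 tested beta-galactosidase and arabinofuranosidase genes, whose enzymes can remove galactose and arabinose, 3 were lower and 0 higher, with a median of -0.84. They were Os04g0640700, OsBgal4 and OsARAF1. OsARAF1 stood at 2.08 and 0.375 FPKM in OE13-2KR/oswox13-1, against 4.04 and 3.90 FPKM in OE13. All these lists are read beside the 12.0% of all genes that were lower and the 8.00% that were higher by the same threshold.

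**Figure D5:**
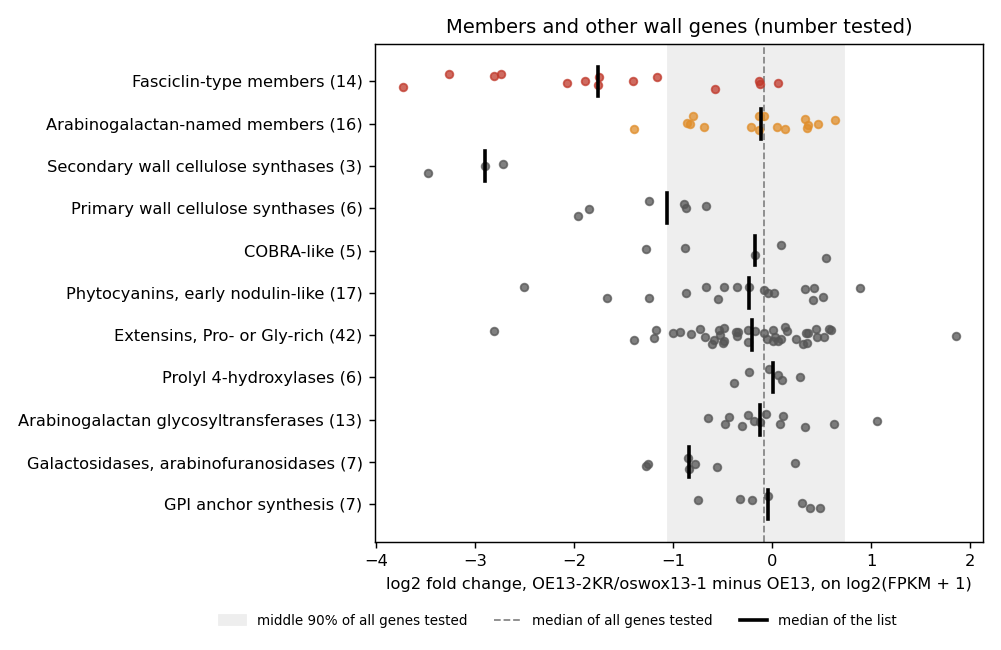
log2 fold change, OE13-2KR/oswox13-1 minus OE13 on log2(FPKM + 1), of each tested gene in the fasciclin-type (red), arabinogalactan-named (orange) and other wall lists (grey), with the number tested in brackets. Black bars are list medians, the grey band holds the middle 90% of all genes and the dashed line their median; 10 fasciclin-type genes and the 3 secondary wall cellulose synthases lie left of the band, as do OsAGP12 and some genes of the primary wall, COBRA-like, phytocyanin, extensin and galactosidase lists.

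Marker lists of other cells were followed in the same libraries. The 4 leaf blade markers, none of them at 0 in any library, summed to 9873 and 5081 FPKM in OE13-2KR/oswox13-1, against 16116 and 7986 FPKM in OE13, with overlap. Their median log2 fold change was -0.51, with 3 of 4 negative and 0 past an unadjusted p under 0.05. Replicate 2 was below replicate 1 in all 4, in OE13 and also in OE13-2KR/oswox13-1. The drop in OE13-2KR/oswox13-1 replicate 2 was thus not particular to the fasciclin-type genes. It was also seen in 6 of 6 primary wall cellulose synthases and 5 of 5 tested COBRA-like genes. Among tested phytocyanin and early nodulin-like genes it was seen in 8 of 17, and among the extensin list in 22 of 42. The part of the leaf blade markers in the fasciclin result was not tested. The 56 core histone genes, taken as markers of dividing cells, summed to 1222 and 1190 FPKM in OE13-2KR/oswox13-1, against 1375 and 1519 FPKM in OE13 and did not overlap. Of 34 tested, 1 was lower and 2 were higher at an unadjusted p under 0.05, and their median log2 fold change was -0.13. The part of dividing cells in the fasciclin result was not tested. The 73 genes with pollen in the description summed to 3943 and 5867 FPKM in OE13-2KR/oswox13-1, against 6166 and 5408 FPKM in OE13, with overlap. That word list holds many genes that leaves express, and of 36 tested 4 were lower and 3 higher. Mtr1, the anther fasciclin gene, stayed close to 0.

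The authors' deposited table of genes marked up held 11 members by their rice gene identifier, 10 of them fasciclin-type. A positive log2 fold change in it is read here as higher in OE13, since 10 of the 11 had the higher mean FPKM in OE13. The series holds only these 4 libraries, so that list is not independent of the FPKM values. By the same match the authors' deposited table held 1110 of the 33744 genes, or 3.29%. Of the 10 fasciclin-type genes without overlap it held 8, and OsFLA7 and OsFLA15 were not matched in it. In the authors' deposited table the log2 fold change in OE13 over OE13-2KR/oswox13-1 was 2.15 for OsFLA6, 2.09 for OsFLA24 and 1.22 for OsFLA3. Of the 11 members in it, 2 (OsFLA6 and OsFLA24) had an adjusted p under 0.05 there, while limma's fit above called 0 members. The family was picked from this comparison of the same libraries, so nothing is read from those 2. OsFLA24 averaged 0.570 FPKM in OE13-2KR/oswox13-1 and entered limma's fit only through OE13. Among the 11 matched members, the authors' deposited table and the FPKM table differed in direction for 1 gene, OsFLA27. In the authors' deposited table OsFLA27 is marked up with a log2 fold change of 4.24 and no adjusted p. Its level was 0.0366 and 0 FPKM in OE13-2KR/oswox13-1, against 0 and 0 in OE13. Why OsFLA7 and OsFLA15 were not matched was not examined. Its span is wholly covered by Os09g0482761 on the other strand, which stood at 0 and 0 FPKM in OE13-2KR/oswox13-1, against 0.460 and 0.730 FPKM in OE13.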

How the data were processed

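Per the file headers, the authors deposited FPKM for each gene in each library, for leaves sequenced as paired reads of 150 nt, per the labels' protocols. The tool behind the FPKM values and any strand setting are not given in the sources used here. IRGSP 1.0 is the build named per the submitters' processing notes, which also list featureCounts 2.0.0, HISAT2 2.2.1 and DESeq2 1.38.3 without saying what each did. Coordinates are read as being on that build. Besides, the authors deposited a log2 fold change and an adjusted p-value for genes marked up, per the file headers, and 1135 rows carried exactly 1 rice gene identifier, and these matched 1110 genes of the FPKM table. Their list marked down carries no such identifier and was not used, nor were 2 unlabelled columns of the FPKM table and 9 unlabelled value columns of a sheet that repeats 1 gene. Although the molecule field of the labels reads genomic DNA, the protocol is one for RNA, and the values were taken as RNA levels.

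Line and replicate number were taken from each sample's title, and columns by library name. limma 3.58.1 in R 4.3.3 was fitted to log2(FPKM + 1) with a trended variance and no replicate term. The fit took 20174 genes, those averaging at least 1 FPKM, with Benjamini-Hochberg adjustment over all of them. The fold change on this scale understates differences of low genes. The fit had 2 residual and 3.3 prior degrees of freedom. The overlap of genes on opposite strands was computed from the deposited coordinates. No counts were used, so no counting interval is given.

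Values in every library were given for the 10 members with the highest mean FPKM, for the 10 tested members with the largest absolute log2 fold change among those without overlap between the lines, and for any tested member higher at an unadjusted p under 0.05, of which there were 0. Context and marker lists were words or identifiers; a gene for an isomerase abbreviated GPI was taken out of the anchor list, and 2 marker identifiers were not found. The members and lists were chosen with earlier results of these data known. Alternatives were a pseudocount of 0.1, no filter, a mean of at least 5 FPKM, rescaling, quantile normalisation, leaving out genes covered to at least 50% on the other strand, a replicate block and leaving out each library.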

Additional observations from a re-analysis of the deposited data

How the results depend on the processing

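The number of genes that passed an adjusted p under 0.05 was 1 and became 0 without a filter, 0 without overlapped genes, 0 with a replicate block, 2 with quantile normalisation and between 0 and 5 with 1 library left out. No member was among them in any of these settings. At an unadjusted p under 0.05, 12 of 30 tested members were lower, beside 2415 of all 20174 genes tested. With a mean of at least 5 FPKM it was 7 of 20 members, beside 1639 of 13763 genes. Without a filter it was 15 of 54 members, beside 2858 of 32386 genes. Quantile normalisation gave 11 of 30 members, beside 1903 of 20174 genes. Without overlapped genes it was 11 of 27 members, beside 2171 of 17541 genes. The replicate block gave 12 of 30 members, beside 2122 of 20174 genes. Replicate numbers are not known to pair the libraries: across genes, the difference between replicates in one line correlated with that in the other at r = -0.0915.

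The median log2 fold change of all tested members, -0.63, was -0.82 with a pseudocount of 0.1, -0.14 without a filter, -0.17 with a mean of at least 5 FPKM, -0.45 with quantile normalisation and between -0.83 and -0.45 with 1 library left out. The split into classes was added after the values were seen. The fasciclin-type median, -1.76, was -2.36 with a pseudocount of 0.1, -0.38 without a filter, -2.40 with a mean of at least 5 FPKM and between -2.13 and -1.28 with 1 library left out. The arabinogalactan-named median, -0.11, was 0.09 with a mean of at least 5 FPKM, 0.02 with quantile normalisation and between -0.23 and 0.13 with 1 library left out. Filters change which genes are tested, and the cause of the other shifts was not tested. The number of fasciclin-type genes with every OE13-2KR/oswox13-1 library below every OE13 library lay between 7 and 15 over all 11 alternatives. It was 7 of 8 tested with a mean of at least 5 FPKM and 15 of 27 tested without a filter. Leaving out 1 library compares 1 library with 2, where overlap is less likely, so those counts are not comparable. The share over all genes was taken only for the main filter, at 32.8%, and for all 33744 genes, at 27.3%. Of 17 members named by rule, 14 kept their sign in every alternative that could be computed for them; the exceptions were OsAGP24, OsAGP27 and OsAGP1.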
